A study of Rattus norvegicus with 48 samples.

Results

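The unfolded protein response and the ATF4 response were followed through 10 genes after male Sprague-Dawley rats were given RDX, a nitramine explosive that can cause seizures at high doses. The genes were Atf4, Ddit3, Atf3, Trib3, Asns, Xbp1, Hspa5, Calr, Herpud1 and Dnajb9, out of 14217 genes with a probe set of their own on the array. A probe set counted for a gene where its platform annotation gave that symbol alone, and in each tissue the probe set with the highest mean represented the gene. The 10 genes had 12 probe sets among the 31042 tested. Trib3 had 3 and each other gene had 1, and the same probe set stood for a gene in both tissues.

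The rats were dosed once by mouth with a gel capsule holding 3 or 18 mg/kg RDX, amounts set to stay below seizure. They were housed in pairs with free access to food, and their age is not given in the sources used here. Brain cortex and liver were taken at 0, 4, 24 and 48 h, with 3 arrays for each of the 16 combinations of tissue, dose and time and 48 arrays in all. The 0 h groups carry a dose label like the others, and each later group was set against the 0 h group of its own dose and tissue. Animals given an empty capsule and killed at 4, 24 or 48 h were not analysed here, so the effects of RDX, of capsule dosing and of the hour at which tissue was taken cannot be told apart. Since no label states that the arrays of a group stand for separate animals, p-values measure only the spread between arrays, which may be technical.

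The endoplasmic reticulum (ER) folds secreted and membrane proteins, and liver, which secretes most plasma proteins, is rich in it. When unfolded protein builds up there, the sensors IRE1, PERK and ATF6 raise chaperones, widen the secretory pathway and slow translation. PERK, and GCN2 when amino acids run short, phosphorylate eIF2, which favours translation of the factor ATF4, and ATF4 in turn raises genes of amino acid supply and stress signalling. Arrays read transcript levels only: the splicing of Xbp1 by IRE1, the translation of Atf4 and the cleavage of ATF6 were not measured.

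The promoter sequences below show where the letters of elements known to bind ATF6, XBP1 or ATF4 occur in these genes, since those factors connect the members with one another. RefSeq promoters of build GRCr8 were in the table used for 9 of the 10 genes, all but Atf3. The 250 bases before each start were searched on both strands. The ER stress response element (ERSE, CCAAT and CCACG with 9 free bases between them) was found in Hspa5, Xbp1 and Calr, and in 0.0657% of 33469 promoters. Its variant ERSE-II (ATTGG and CCACG with 1 free base between them), which holds the ends of the ERSE with the first one reversed, was found in Herpud1 and in 0.0418% of promoters. The core of the ATF4-CHOP composite site (TGATGNAA) was found in Trib3 and Herpud1 and in 3.4% of promoters, and the core of the unfolded protein response element (TGACGTGG) in none of the members and in 0.52% of promoters. Stretches around the matches are printed 5′ to 3′ on the gene's strand, with the matches in capitals except for the free bases inside the ERSE; those of Calr and both composite cores read on the opposite strand. A match is a description of letters and not of binding.
Hspa5 (chr3:38452963-38453001, plus strand, ERSE 43 to 25 bases before the start): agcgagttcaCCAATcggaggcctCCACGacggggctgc
Xbp1 (chr14:84604548-84604586, plus strand, ERSE 65 to 47 bases before the start): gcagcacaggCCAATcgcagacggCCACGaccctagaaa
Calr (chr19:40213125-40213163, plus strand, ERSE on the opposite strand 232 to 214 bases before the start): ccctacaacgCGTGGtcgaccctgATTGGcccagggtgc
Herpud1 (chr19:10614811-10614901, minus strand, composite core 184 to 177 and ERSE-II 124 to 114 bases before the start): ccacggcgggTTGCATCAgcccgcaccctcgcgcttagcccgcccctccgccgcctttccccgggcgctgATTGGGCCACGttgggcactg
Trib3 (chr3:161275537-161275564, minus strand, composite core 21 to 14 bases before the start): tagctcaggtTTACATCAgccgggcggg

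The values are log2 signals, on which 1 unit is a doubling. The marker genes went with the tissue labels, with the neuron list at means of 9.37 to 9.94 in cortex arrays and 4.85 to 5.85 in liver arrays. Hepatocyte markers, averaged over the probe sets that represent them in liver, stood above a mean of 8 in 4 cortex arrays and reached 10.45 there, against 10.85 to 13.11 in liver. Over the probe sets that represent them in cortex the highest mean was 10.60, and an 18 mg/kg 24 h array at 8.05 was above 8 as well. The 3′ minus 5′ gap of the actin control probe sets, called the actin gap, widens when RNA is degraded or shortened. It was over 3 in 10 of the 24 cortex arrays. Most liver arrays were over 3 as well. Liver gaps ran from 2.76 to 4.38, apart from 0.62 at 18 mg/kg, 4 h, replicate 1. In liver 2 arrays had a narrow spread of log2 values, with SDs of 1.492 (3 mg/kg, 0 h, replicate 2) and 1.383 (18 mg/kg, 4 h, replicate 1) against 1.824 to 2.082 in the others. These are called the compressed arrays. The SD of 1.824 was that of 3 mg/kg, 0 h, replicate 1, which stays in the fits without them. Among the liver arrays other than the compressed ones it also had the widest actin gap (4.38) and the lowest hepatocyte marker mean (12.73). Of the 10 genes 7 had their lowest liver value in one of them, and the share over all probe sets is not given here. That count is read as a description of the arrays and not of the members. The limits on spread, gap and markers were set after the data were seen. In whole tissue, fewer cells of a type and less RNA per cell cannot be told apart.

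At 0 h cortex and liver differed in most of these genes, and the downstream genes split in direction. Asns, which makes asparagine, and Ddit3, which encodes the stress factor CHOP, stood higher in cortex. Trib3, a pseudokinase that dampens ATF4 signalling, Atf3, a stress-induced factor, Hspa5, the main ER chaperone also known as BiP, and Herpud1, a component of ER-associated degradation, stood higher in liver. By limma's adjusted p over all probe sets 6 of the 10 genes passed, 2 higher and 4 lower in cortex, beside 77.4% of all probe sets tested (30.8% higher and 46.5% lower). In the same 6 genes the 6 cortex arrays did not overlap the 6 liver arrays, beside 53% of all probe sets.

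The largest separation was that of Asns, at 9.12 ± 0.117 (SD, n = 6) in cortex and 6.39 ± 0.828 (SD, n = 6) in liver. The cortex level was 6.61-fold higher (log2 difference 2.72 ± 0.29 SE, 95% interval 2.14 to 3.31, adjusted p = 1.1e-10, limma). Liver arrays of Asns ran from 5.57 to 7.64 at 0 h, so its spread in liver was far wider than in cortex. Ddit3 was 1.68-fold higher in cortex, at 8.31 ± 0.0614 against 7.56 ± 0.418 (SD, n = 6 each; adjusted p = 3.4e-05, limma).

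In the opposite direction Trib3 was 3.87-fold higher in liver, at 7.74 ± 0.248 against 5.79 ± 0.113 in cortex (SD, n = 6 each; adjusted p = 3.2e-12, limma). Atf3 read 6.41 ± 0.554 in liver against 4.54 ± 0.0863 in cortex (SD, n = 6 each; adjusted p = 2.6e-11, limma). Its cortex mean over all 24 arrays lay at the 10.5th percentile of probe sets, near the bottom of the array's range. Its liver mean lay at the 54.4th. The measured difference was 3.66-fold (log2 95% interval -2.26 to -1.49), and a cortex signal that low may understate it. Without the compressed arrays, of which the 0 h array read 7.06, it was 3.33-fold. Hspa5 was 2.91-fold higher in liver, at 12.61 ± 0.157 against 11.07 ± 0.191 (SD, n = 6 each; adjusted p = 5.2e-07), and Herpud1 2.24-fold higher, at 9.95 ± 0.526 against 8.78 ± 0.0466 (SD, n = 6 each; adjusted p = 4e-04).

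Atf4, whose protein is made when eIF2 is phosphorylated, stood at 11.35 in cortex and 10.85 in liver, a difference of 0.51 with a 95% interval of -0.07 to 1.08 (adjusted p = 0.1, limma). Xbp1, the factor spliced by IRE1, differed by -0.34 (-0.86 to 0.18), Calr, the calcium-binding lectin chaperone calreticulin, by -0.35 (-0.92 to 0.21), and Dnajb9, an ER co-chaperone of BiP, by -0.36 (-0.71 to -0.02), cortex minus liver. None of these 4 passed, with adjusted p-values of 0.052 to 0.25. Without the compressed arrays all 10 passed, 3 higher and 7 lower in cortex, beside 78.9% of probe sets (31.5% higher and 47.3% lower). Atf4 then differed by 0.35 (adjusted p = 0.0058) and Dnajb9 by -0.51 (adjusted p = 2.5e-05, limma).

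**Figure D1:**
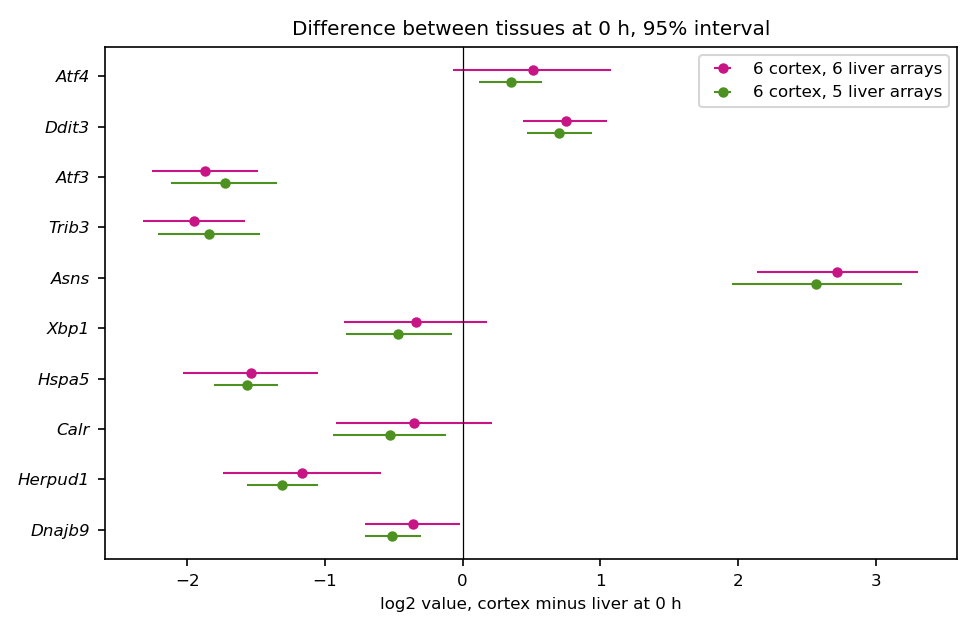
Cortex minus liver difference in log2 signal at 0 h for each of the 10 genes, with 95% intervals from limma, over 6 cortex and 6 liver arrays (magenta) and without the compressed arrays, with 5 liver arrays (green). Asns lies at 2.72 on the cortex side, while Trib3 lies at -1.95 on the liver side and Atf3, with a cortex signal near the bottom of the array's range, at -1.87.

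In cortex none of the 10 genes passed at any dose and time. The count was 0 of 60 gene and contrast values by limma, beside 23 of 186252 over all probe sets (0.0123%). At an unadjusted p under 0.05 the members had 7 of 60 values and all probe sets 12.3%. The following levels are therefore descriptions of values that did not pass.

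Atf4 varied little in cortex. Its 0 h arrays read 11.46, 11.26 and 11.45 at 3 mg/kg and 11.32, 11.46 and 11.19 at 18 mg/kg. All 18 later arrays lay between 11.10 and 11.68, on both sides of the 0 h arrays, and the 6 changes against 0 h lay between -0.05 and 0.11 on the log2 scale.

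Among the genes that ATF4 is known to raise, Ddit3 showed the narrowest spread. In the higher dose arm its 0 h arrays read 8.43, 8.32 and 8.29 and its 48 h arrays 8.16, 8.12 and 8.17, a change of -0.20 ± 0.079 (SE; adjusted p = 0.23, limma). The 48 h arrays all lay below the 0 h arrays, as did those of 7.99% of probe sets in that contrast. The order was the other way at 3 mg/kg and 24 h, with 8.33, 8.41 and 8.49 against 8.29, 8.28 and 8.25 at 0 h, all above, beside 10.5% of probe sets. The 0 h arrays of the higher dose themselves all lay above those of the lower dose, beside 3.92% of probe sets.

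Atf3 stayed near the lower end of the array's range in every cortex group. With 3 mg/kg it read 4.50, 4.69 and 4.47 at 0 h, then 4.38, 4.35 and 4.19 at 4 h, 4.38, 4.31 and 4.38 at 24 h and 4.33, 4.38 and 4.35 at 48 h. Each of the 9 later arrays lay below each 0 h array, beside 9.59%, 9.14% and 10.8% of probe sets at the 3 times. The change at 4 h was -0.24 ± 0.1 (SE; adjusted p = 0.38, limma). The arrays overlapped at all times at 18 mg/kg, with 4.36, 4.84 and 4.76 at 24 h against 4.51, 4.60 and 4.48 at 0 h.

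Trib3 lay between 5.45 and 5.98 over the 24 cortex arrays and Asns between 8.87 and 9.38. Asns at 18 mg/kg and 4 h read 9.38, 9.25 and 9.16, all above 8.99, 8.99 and 9.15 at 0 h, beside 8.77% of probe sets. Trib3 lay below its 0 h arrays at 3 mg/kg and 48 h, with 5.57, 5.64 and 5.71 against 5.76, 5.82 and 5.75, beside 10.8% of probe sets. Neither passed the test.

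Xbp1 had the smallest unadjusted p of the 60 cortex values, at 18 mg/kg and 48 h (0.004, adjusted 0.13, limma). It read 10.66, 10.57 and 10.24 at 0 h, and 9.56, 10.43 and 9.42 at 48 h, a change of -0.68 ± 0.21 (SE, 95% interval -1.12 to -0.25). Replicates 1 and 3 at 48 h were the lowest of all 24 cortex arrays, and replicate 2 lay inside the 0 h range. Without replicate 2 the level at 48 h was 1.99-fold lower (log2 95% interval -1.36 to -0.63) with an adjusted p of 0.0047 by limma, and 6.91% of all probe sets then passed in that contrast. Replicate 2 had an actin gap of 2.95 and a hepatocyte marker mean of 10.02. Replicates 1 and 3, on which that call rests, had gaps of 4.61 and 4.39 and marker means of 5.96 and 10.45. With the gap as a covariate the change over all arrays was -0.27 (adjusted p = 0.55). The 3 changes of Xbp1 at the lower dose lay between -0.13 and -0.05.

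Among the chaperones, Hspa5 was below its 0 h mean in all 6 cortex contrasts, by -0.41 to -0.19, and none passed (adjusted p from 0.45 to 0.88, limma). In the higher dose arm it read 11.35, 11.07 and 10.77 at 0 h and 10.62, 10.70 and 10.62 at 4 h, with no overlap, beside 8.23% of probe sets lower without overlap. At 48 h that arm read 10.40, 11.15 and 10.98 and overlapped again, while the lower dose read 10.91, 10.91 and 10.83 against 11.10, 10.99 and 11.14 at 0 h, all below, beside 10.8% of probe sets. Over both doses and all later times the change was -0.25 ± 0.098 (SE, 95% interval -0.45 to -0.04, adjusted p = 0.79, limma). With the actin gap as a covariate, the change of Hspa5 at 18 mg/kg was -0.25 at 4 h and -0.01 at 48 h. Without that covariate these changes were -0.41 and -0.22.

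The changes of Calr had opposite signs in the dose arms, and none passed. With 3 mg/kg it read 9.97, 9.64 and 10.65 at 0 h and 10.53, 10.68 and 10.84 at 4 h, and the changes at 4, 24 and 48 h were 0.60, 0.48 and 0.41 (± 0.26 SE each). With 18 mg/kg it read 10.74, 10.59 and 9.76 at 0 h, then 9.73, 9.72 and 9.78 at 4 h, 10.51, 10.05 and 9.63 at 24 h and 9.88, 10.12 and 9.43 at 48 h. The 4 h arrays lay at the level of the lowest 0 h array, and the changes were -0.62, -0.30 and -0.55 (± 0.26 SE each). The difference between doses in Calr had an unadjusted p of 0.019 and an adjusted p of 0.24 (limma F test).

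The values of Calr went with the actin gap. In the 10 cortex arrays with a gap over 3 it lay between 9.43 and 10.05, and in the other 14 between 10.12 and 10.84, without overlap. The share of all probe sets that separate in this way is not given here, and the limit was set after the data were seen. The 3 mg/kg arm had 2 arrays over that limit, both at 0 h, and the 18 mg/kg arm had 8, of which 7 were later. With the gap as a covariate, the change of Calr at 18 mg/kg was -0.06 at 48 h and -0.24 at 4 h. Xbp1 lay between 9.42 and 10.47 in the arrays over the limit and between 10.27 and 10.66 in the others, while Herpud1 (8.70 to 9.27 and 8.63 to 9.28) and Atf4 (11.19 to 11.67 and 11.10 to 11.68) covered nearly the same range in both. Hspa5 lay between 10.40 and 11.10 in the arrays over the limit and between 10.68 and 11.35 in the others. The part of RNA integrity in these values was not tested beyond that covariate.

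Herpud1 and Dnajb9 completed the ER genes. Herpud1 at 18 mg/kg and 4 h read 8.98, 8.83 and 9.03, just above 8.80, 8.80 and 8.70 at 0 h, beside 8.77% of probe sets higher without overlap, a change of 0.18 ± 0.13 (SE). Its 6 changes lay between 0.02 and 0.21. Dnajb9 lay between 9.23 and 9.84 over the 24 arrays, and its later arrays overlapped the 0 h arrays in every contrast.

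**Figure D2:**
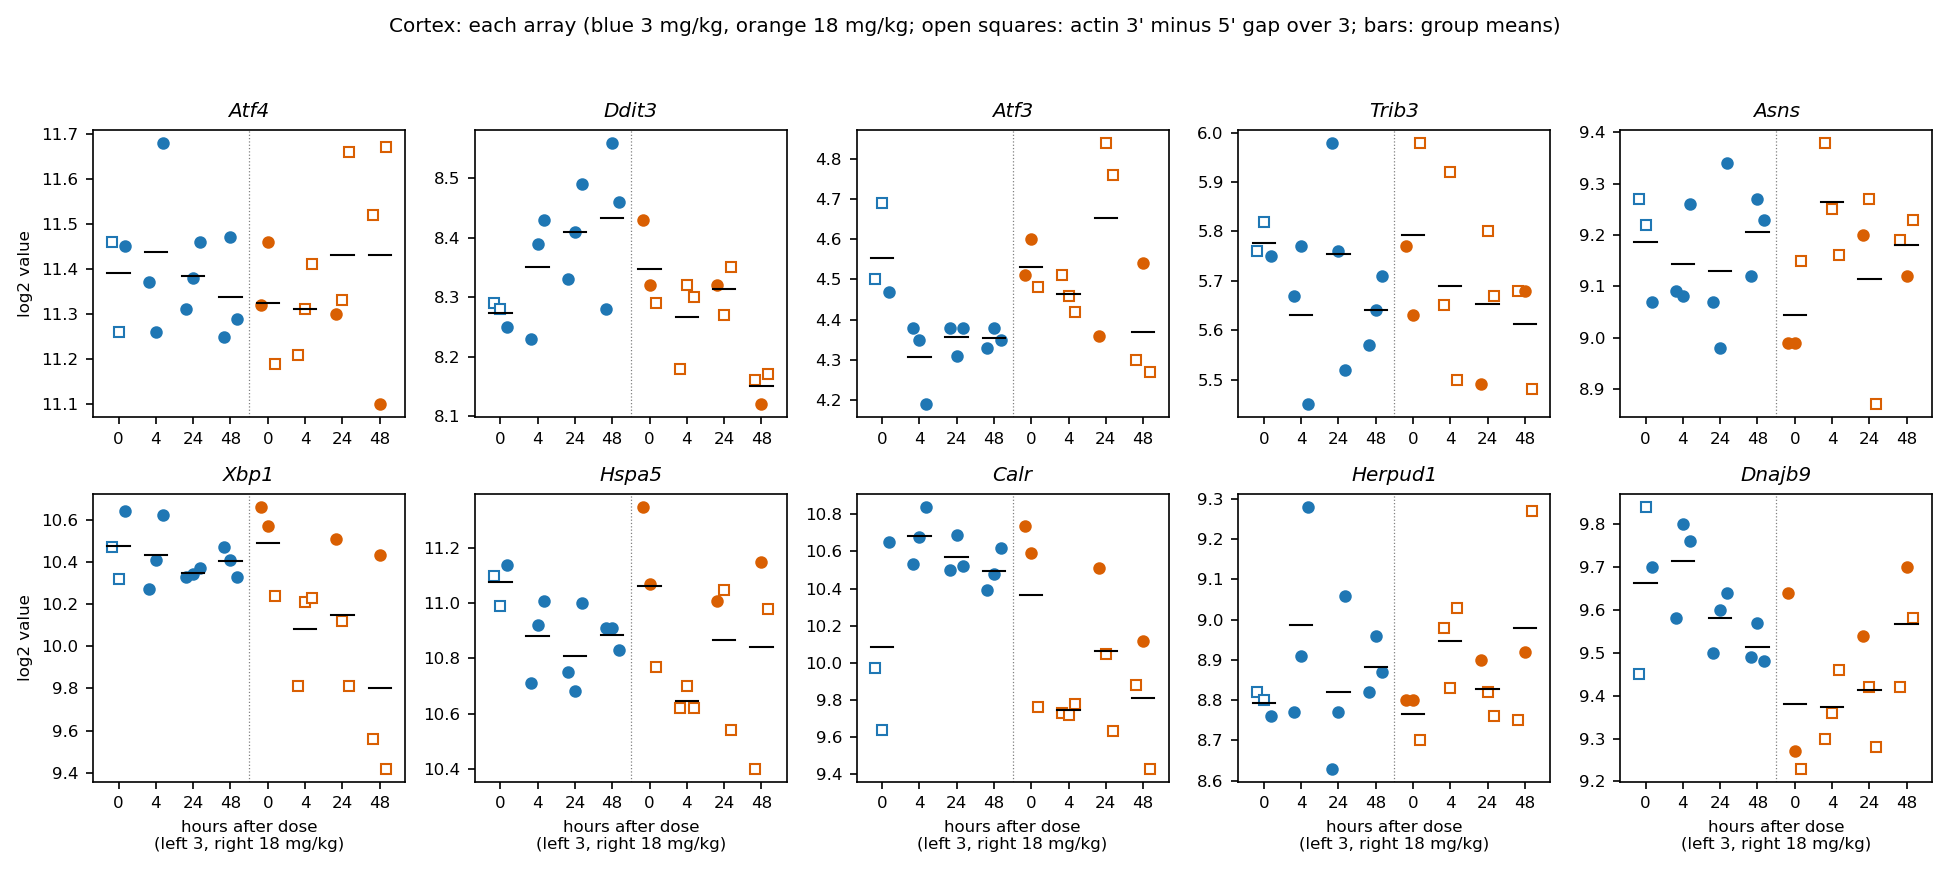
Log2 signal of the 10 genes in each of the 24 cortex arrays by time after dosing in hours, 3 mg/kg in blue and 18 mg/kg in orange, with bars at group means and open squares for arrays with an actin gap over 3. Calr lies between 9.43 and 10.05 in the open squares and between 10.12 and 10.84 in the rest, while Atf4 mixes both kinds of array.

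**Figure D3:**
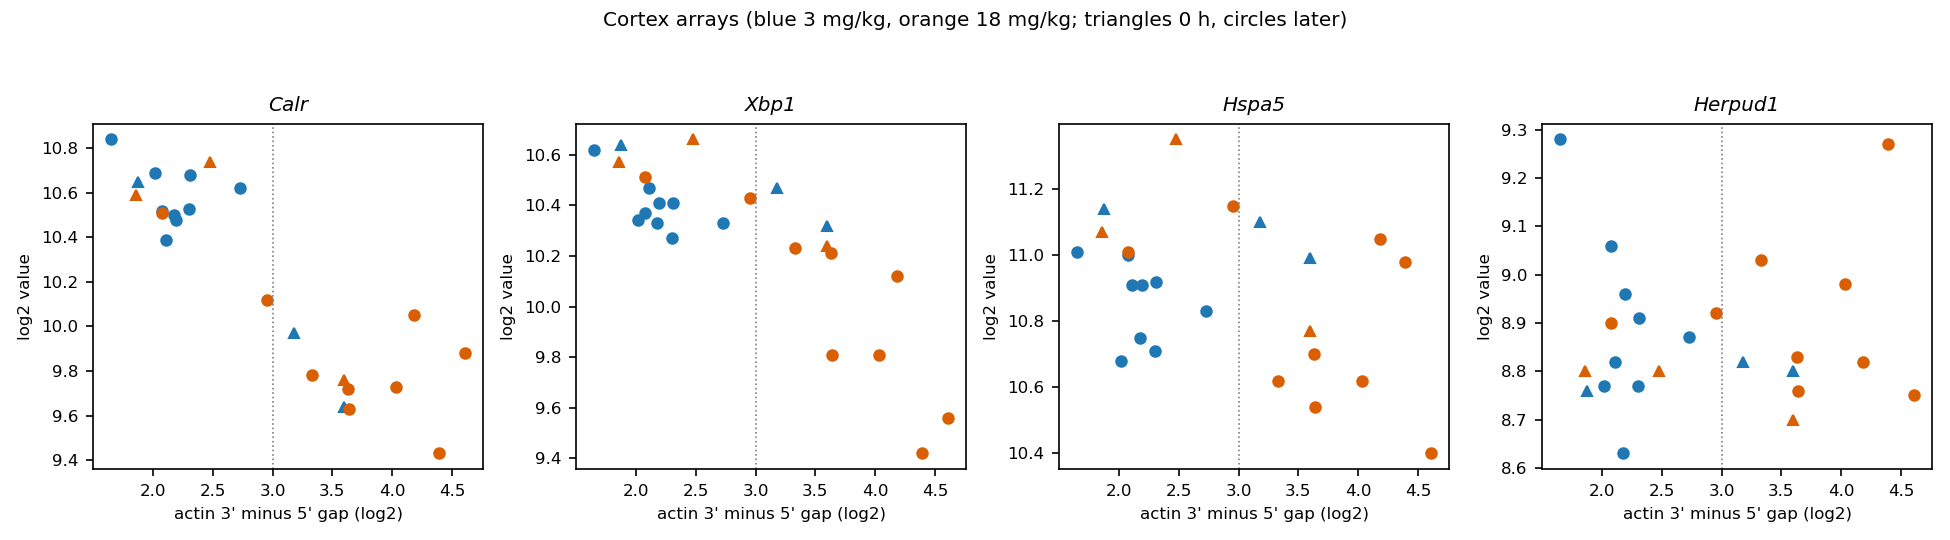
Log2 signal of Calr, Xbp1, Hspa5 and Herpud1 in the 24 cortex arrays against the 3′ minus 5′ gap of the actin control probe sets in log2 units, with triangles at 0 h, circles at later times and a dotted line at a gap of 3. All 10 Calr points right of the line lie below the 14 points left of it, and the Herpud1 points on both sides cover nearly the same range.

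In liver Herpud1 was the member that stood furthest above its 0 h arrays, at 4 h, and whether it passed the test depended on the compressed arrays. With all 24 arrays 0 of 60 gene and contrast values passed by limma, beside 2943 of 186252 over all probe sets (1.58%). At an unadjusted p under 0.05 the members had 7 of 60 values, and all probe sets had 13.6%. Without the compressed arrays Herpud1 rose 2.18-fold at 4 h over both doses and no other member passed. Leaving these arrays out was chosen after seeing the data.

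With 3 mg/kg Herpud1 read 9.68, 9.01 and 10.07 at 0 h, 11.09, 11.07 and 11.13 at 4 h, 10.45, 10.51 and 10.49 at 24 h and 10.64, 10.28 and 10.59 at 48 h. All 9 later arrays lay above the 3 at 0 h, and the 4 h arrays were the highest. With 18 mg/kg it read 10.44, 10.21 and 10.28 at 0 h, 8.10, 11.23 and 11.45 at 4 h, 10.82, 10.00 and 10.73 at 24 h and 10.12, 10.78 and 10.71 at 48 h. Here 2 of the 4 h arrays were the highest of the arm and the third, a compressed array, was the lowest of all liver arrays.

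The change of Herpud1 at 3 mg/kg and 4 h was 1.51 ± 0.52 (SE, 95% interval 0.42 to 2.60), 2.85-fold, with an adjusted p of 0.28 (limma), and 0.0226% of probe sets passed in that contrast. The change at 18 mg/kg was -0.05 ± 0.52. Without the compressed arrays the values were 1.22 ± 0.23 (adjusted p = 0.064) and 1.03 ± 0.23 (adjusted p = 0.18, limma), so neither dose passed alone, and 0.778% of the 6 contrasts' values over all probe sets did. Over both doses the mean went from 10.09 in 5 arrays at 0 h to 11.22 in 5 arrays at 4 h, a change of 1.13 ± 0.16 (SE, 95% interval 0.79 to 1.46; adjusted p = 0.0017, limma), where 0.274% of probe sets passed. Every one of these 4 h arrays lay above every 0 h array, as did those of Trib3 and of 1.1% of probe sets.

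Later than 4 h the change of Herpud1 was smaller, at 0.41 (adjusted p = 0.29) at 24 h and 0.43 (adjusted p = 0.25) at 48 h over both doses without the compressed arrays. The difference between 4 h and the later times was not tested. Over all later times together the change was 0.66 ± 0.13 (SE, 95% interval 0.39 to 0.92), 1.57-fold (adjusted p = 0.046, limma), with 0.142% of probe sets passing. With all 24 arrays the 4 h change over both doses was 0.73 (adjusted p = 0.6).

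The 0 h groups bear on these changes. Herpud1 then had a mean of 9.59 in the lower and 10.31 in the higher dose arm, and all 3 arrays of the first lay below all 3 of the second, beside 8.41% of probe sets in that direction. The difference of 0.72 did not pass (adjusted p = 0.41, limma). The mean of the Kupffer cell list (5 of 5 genes measured) ranged at 3 mg/kg from 8.64 to 9.77 at 0 h and from 10.01 to 10.38 at 4 h. The hepatocyte list (10 of 10) ranged from 12.08 to 12.86 and from 12.92 to 12.95, and the red cell list (2 of 3) from 9.93 to 10.94 and from 10.79 to 11.54. At the higher dose the 0 h ranges of the 3 lists were 9.85 to 10.27, 12.83 to 13.10 and 11.27 to 11.40. The endothelial list (3 of 4) ranged at 3 mg/kg from 7.84 to 8.25 at 0 h and from 8.47 to 8.63 at 4 h, against 8.28 to 8.45 at the higher dose and 0 h. The neutrophil list (2 of 3) ranged from 6.19 to 6.93 and from 7.14 to 7.28, against 6.05 to 7.21. Between the 0 h groups the Kupffer, red cell and endothelial lists did not overlap and the hepatocyte list overlapped narrowly. Each had the lower range at 3 mg/kg, where Herpud1 was lower. The cholangiocyte list did not overlap in that direction either, at 6.27 to 6.79 against 6.80 to 7.33 at 18 mg/kg. The neuron list did not overlap in the other direction, at 5.35 to 5.75 against 5.27 to 5.34. The remaining lists overlapped. The ranges at 3 mg/kg and 0 h include the compressed array of that group. Replicate 1 of that group, with Herpud1 at 9.68, stays when the compressed arrays are left out. The actin gaps at 3 mg/kg were 4.38, 3.29 and 3.88 at 0 h and 3.19, 3.73 and 3.84 at 4 h. With the gap as a covariate over all 24 arrays, the change of Herpud1 at 4 h over both doses was 1.43 (adjusted p = 0.0078, limma). Of all values over both doses 11.8% then passed. That gap was 0.62 in the compressed 18 mg/kg 4 h array and 2.76 to 4.38 in the other liver arrays. The covariate is therefore not independent of leaving that array out. The parts of cell makeup and of array spread in the change of Herpud1 were not tested.

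Leaving out only the compressed 18 mg/kg array brought 8 of 60 liver values past the threshold, beside 5.8% of values over all probe sets. These were Herpud1 at all 3 times at 3 mg/kg (1.51, 0.89 and 0.91; adjusted p = 0.01, 0.035 and 0.013, limma), Atf4 at 24 and 48 h (0.92 and 0.88; adjusted p = 0.029 and 0.011), and Ddit3, Xbp1 and Calr at 48 h. In the 48 h contrast 5 of the 10 genes then passed, beside 26.4% of probe sets. All 8 values were changes at 3 mg/kg, whose 0 h group holds the other compressed array.

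Counting arrays without overlap, 4 genes stood above 0 h at 3 mg/kg and 4 h (Atf4, Trib3, Calr and Herpud1), beside 9.51% of probe sets. There were 2 at 24 h (Atf4 and Herpud1) beside 7.36%, and 4 at 48 h (Atf4, Ddit3, Calr and Herpud1) beside 16.9%. Below 0 h stood Hspa5 at 24 and 48 h, beside 11.6% and 19.3%. At 18 mg/kg and 4 h 1 gene (Trib3) stood above, beside 7.04%, and 2 genes (Atf4 and Hspa5) stood below, beside 4.33%. Atf4 in liver read 10.51, 9.81 and 10.96 at 0 h after the lower dose and 11.44, 10.96 and 11.52 at 48 h. Its later arrays at 3 mg/kg lay between 10.96 and 11.52, and at 4, 24 and 48 h the changes were 0.68, 0.92 and 0.88 (± 0.52 SE each). The 0 h arrays at 18 mg/kg already read 11.35, 11.22 and 11.25, above all 3 at the lower dose, and the changes at 24 and 48 h were -0.22 and -0.01. At 4 h the higher dose read 7.87, 11.10 and 11.17, with the first in the compressed array, all below the 0 h arrays. That change was -1.22 ± 0.52 (SE; adjusted p = 0.44, limma), and -0.14 ± 0.19 (adjusted p = 0.99) without the compressed arrays.

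Ddit3 followed the same layout. With 3 mg/kg it read 7.00, 7.10 and 7.71 at 0 h and 7.96, 7.89 and 7.85 at 48 h, without overlap, a change of 0.63 ± 0.29 (SE; adjusted p = 0.13, limma). With 18 mg/kg it read 8.03, 7.71 and 7.83 at 0 h and 8.19, 7.69 and 7.66 at 48 h, a change of -0.01. The 0 h level was thus higher in the arm with the smaller change.

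Atf3, a factor induced early by many stresses, gave changes of -0.14 to -0.01 in the 6 liver contrasts with all arrays. The changes at 3 mg/kg turned to 0.21, 0.13 and 0.24 (± 0.37 SE each; adjusted p = 0.72 to 0.91, limma) without the compressed arrays, one of which holds the 7.06 at 0 h. Its arrays spread widely, with 5.57, 7.06 and 6.88 in the 3 mg/kg group at 0 h and 5.92, 5.86 and 6.92 in the 18 mg/kg group at 24 h. Later and 0 h arrays overlapped in every contrast with all arrays, with an SE of 0.35 for each change.

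Trib3 was above its 0 h mean in all 6 liver contrasts, by 0.30 to 0.65. With 3 mg/kg it read 7.47, 8.16 and 7.49 at 0 h and 8.36, 8.38 and 8.33 at 4 h, and with 18 mg/kg 7.73, 7.78 and 7.78 at 0 h and 7.96, 8.21 and 8.73 at 4 h. The 4 h arrays lay above the 0 h arrays in each arm, beside 9.51% and 7.04% of probe sets higher without overlap. Over both doses the 4 h change was 0.59 (95% interval 0.11 to 1.08; adjusted p = 0.45, limma), and without the compressed arrays 0.79 ± 0.24 (SE, 95% interval 0.28 to 1.30; adjusted p = 0.21). The other Trib3 probe sets did not behave alike. One was above its 0 h mean in all 6 contrasts, by 0.37 to 1.09, and the other gave 0.06, -0.35 and -0.60 at 3 mg/kg and 0.24, 0.60 and 0.87 at 18 mg/kg. None of these values passed.

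Asns ran from 5.30 to 7.96 over the 24 liver arrays, with neither end in a compressed array. The lower dose read 7.64, 5.70 and 5.57 at 0 h and 6.61, 7.60 and 7.07 at 48 h. The higher dose read 6.92, 5.82 and 6.69 at 0 h and 6.41, 7.96 and 7.56 at 48 h. Its changes lay between -0.17 and 0.83 with an SE of 0.54, and 0 h and later arrays overlapped in every contrast.

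Xbp1 read 10.18, 9.91 and 11.15 at 0 h after the lower dose and 11.60, 11.50 and 10.99 at 4 h, a change of 0.95 ± 0.45 (SE). The third 0 h array lay inside the 4 h range. The changes at 18 mg/kg were -0.63, -0.17 and 0.10, and the 4 h arrays read 9.06, 10.96 and 11.78. No Xbp1 value passed with all arrays.

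Hspa5 was below its 0 h mean in all 6 later liver groups. The lower dose read 12.84, 12.54 and 12.64 at 0 h, 12.46, 12.40 and 12.59 at 4 h, 12.22, 12.44 and 12.50 at 24 h and 12.45, 12.28 and 12.22 at 48 h. The higher dose read 12.52, 12.71 and 12.40 at 0 h, 9.50, 12.37 and 12.20 at 4 h, 12.33, 12.39 and 12.19 at 24 h and 12.39, 12.37 and 12.55 at 48 h. All later arrays lay below all 0 h arrays at 24 and 48 h after the lower dose and at 4 and 24 h after the higher dose, beside 11.6%, 19.3%, 4.33% and 4.21% of probe sets lower without overlap. Without the compressed arrays the change over both doses and all later times was -0.27 ± 0.087 (SE; unadjusted p = 0.005, adjusted p = 0.17, limma). In the 5 arrays at 4 h in which Herpud1 stood highest, Hspa5 lay within or below the range of its 0 h arrays.

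Calr read 10.27, 9.39 and 10.65 at 0 h after the lower dose and 11.20, 11.13 and 11.14 at 48 h, a change of 1.05 ± 0.47 (SE; adjusted p = 0.13, limma). The 48 h arrays all lay above the 0 h arrays. After the higher dose it read 11.24, 10.81 and 11.11 at 0 h, above all 3 arrays of the lower dose, and the 3 changes were -1.01, -0.72 and -0.33. Dnajb9 gave changes of 0.61, 0.18 and 0.30 at 3 mg/kg and -0.04, 0.16 and 0.45 at 18 mg/kg. Dnajb9 at 18 mg/kg and 48 h read 10.31, 10.31 and 10.51, just above 9.93, 9.65 and 10.21 at 0 h, beside 5.52% of probe sets. Its 4 h change over both doses was 0.40 ± 0.12 (SE; adjusted p = 0.23, limma) without the compressed arrays.

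**Figure D4:**
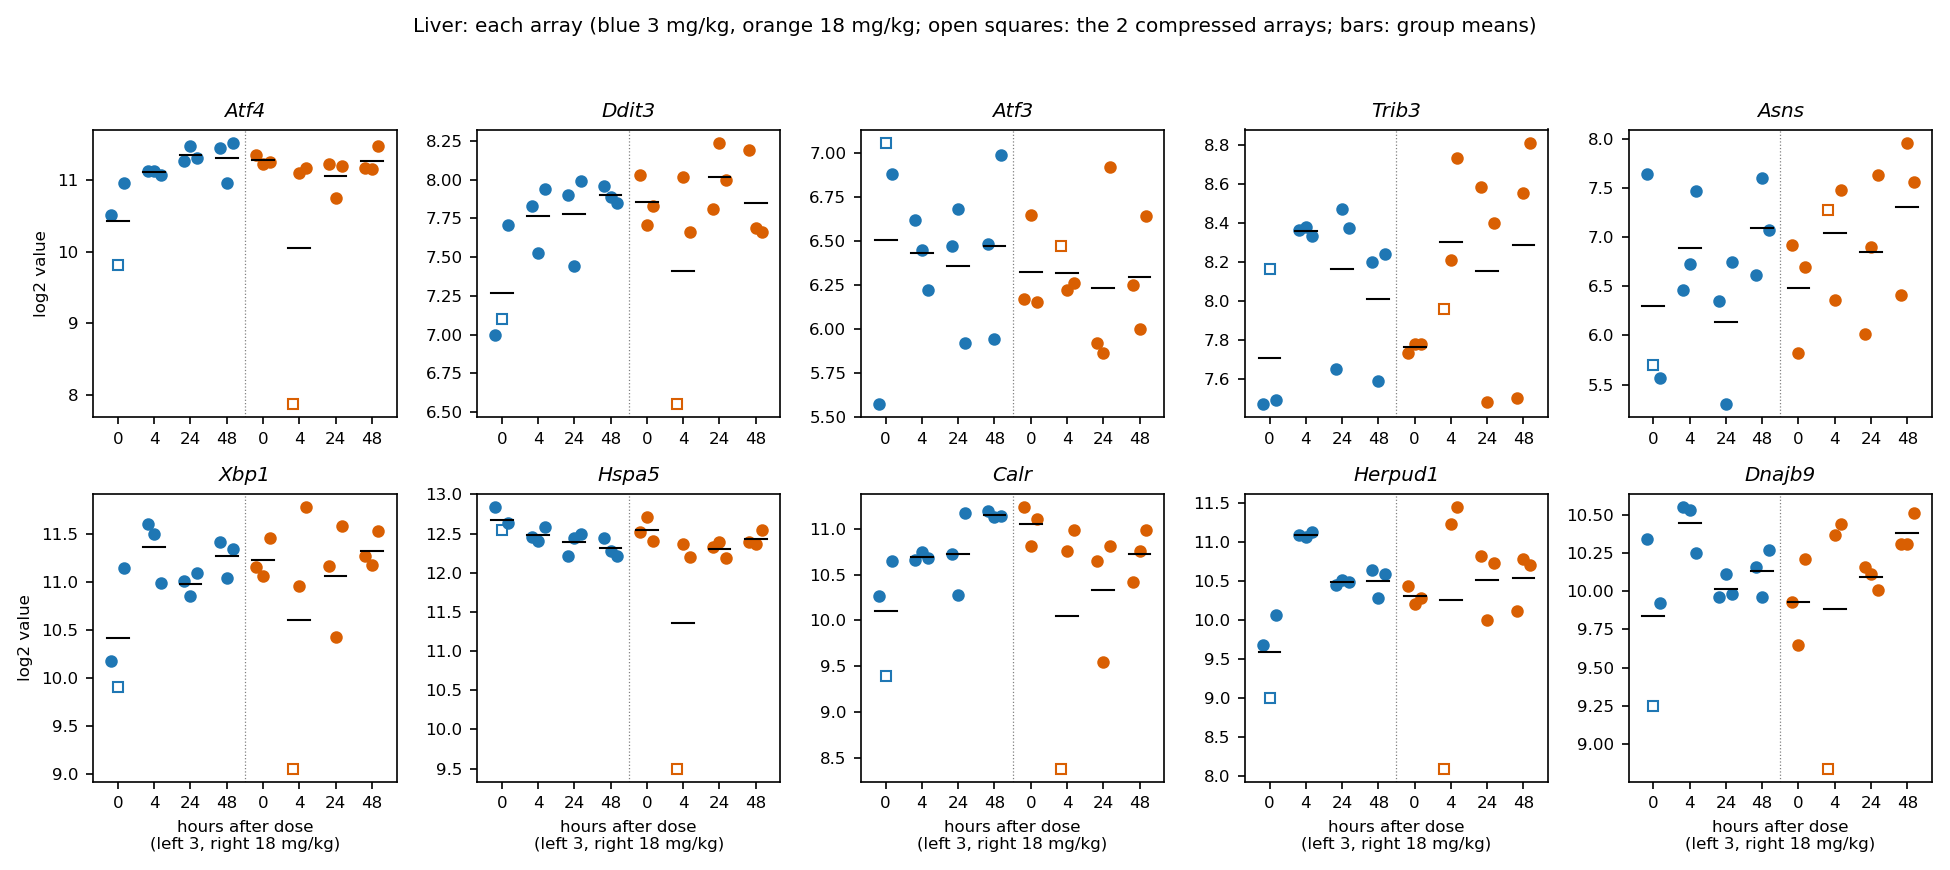
Log2 signal of the 10 genes in each of the 24 liver arrays by time after dosing in hours, 3 mg/kg in blue and 18 mg/kg in orange, with bars at group means and open squares for the 2 compressed arrays. Outside the open squares the 5 Herpud1 arrays at 4 h lie between 11.07 and 11.45 and the 5 at 0 h between 9.68 and 10.44.

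**Figure D5:**
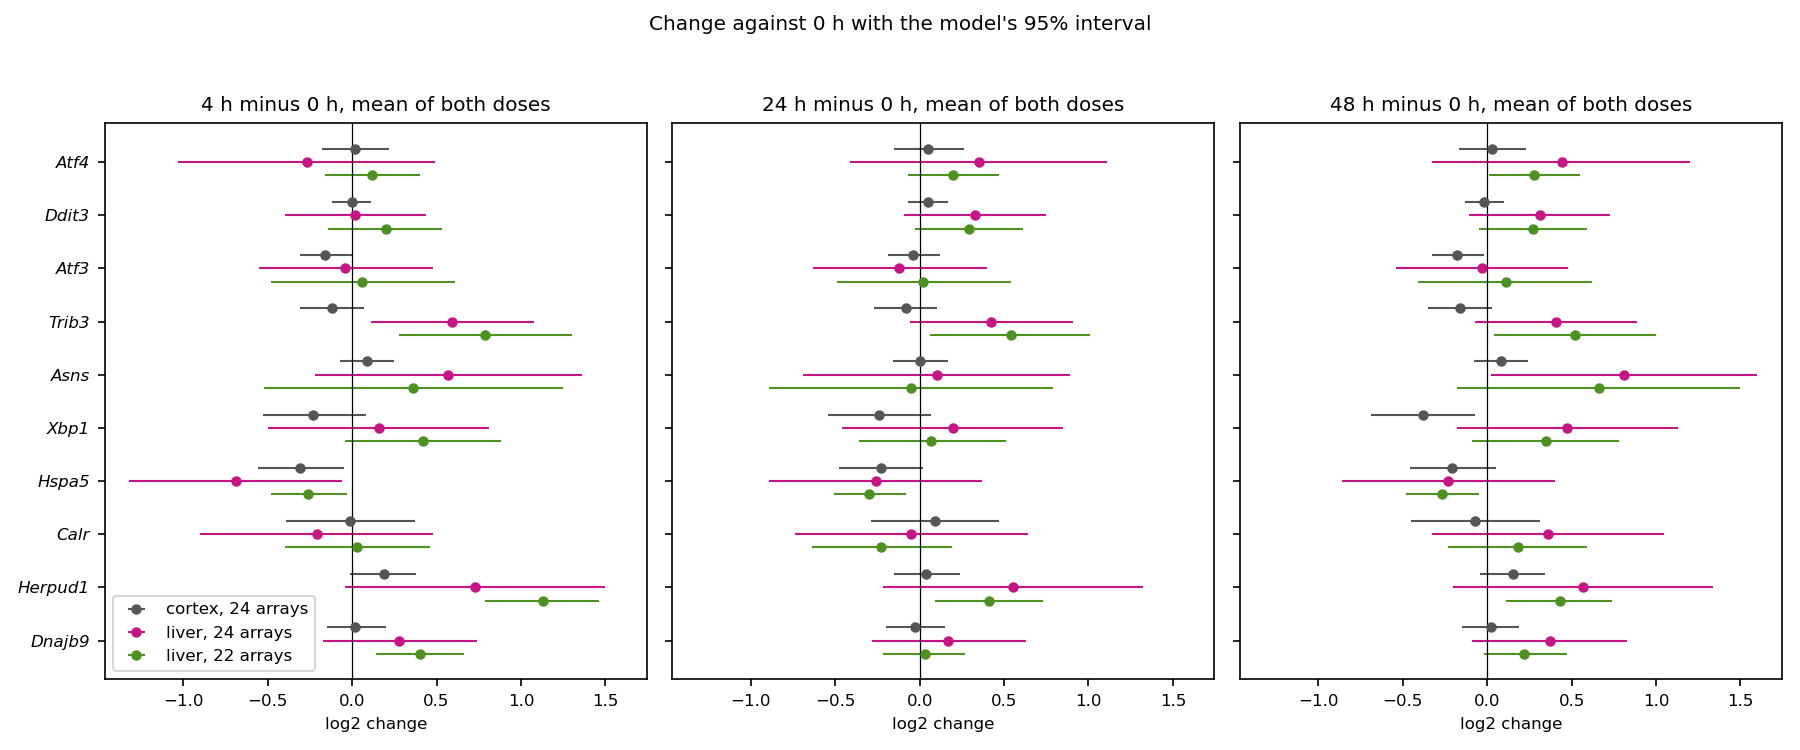
Change in log2 signal at 4, 24 and 48 h against 0 h over both doses for the 10 genes, with 95% intervals from limma, in cortex (grey, 24 arrays), liver (magenta, 24 arrays) and liver without the compressed arrays (green, 22 arrays). The green Herpud1 interval at 4 h runs from 0.79 to 1.46 around 1.13, while the magenta Herpud1 interval at that time includes 0.

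Taking the 10 genes as a list, their median liver change after the lower dose was 0.60 at 4 h, 0.48 at 24 h and 0.71 at 48 h, beside 0.09, 0.04 and 0.05 over all genes. These medians were 0.34, 0.29 and 0.54 without the compressed arrays, beside 0.06 over all genes at 4 h (not given here at 24 and 48 h). After the higher dose the median of the 10 genes was -0.25, 0.04 and 0.04, beside -0.01, 0.01 and -0.00 over all genes. Without the compressed array their 4 h median turned to 0.06. In cortex, with all arrays, the medians lay between -0.17 and 0.00. Between the 0 h liver groups the higher dose stood above the lower by 0.85 in Atf4, 0.95 in Calr, 0.82 in Xbp1 and 0.59 in Ddit3, with adjusted p-values of 0.24 to 0.34 (limma), and no probe set passed in that comparison.

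Whether the doses differed in their course against 0 h was tested for each gene with limma's F test over the 3 times. In each tissue 0 of 10 genes passed, beside 0.00322% of probe sets in cortex and 0.00966% in liver. At an unadjusted p under 0.05 the counts were 2 genes in cortex, Calr and Ddit3, and 0 in liver, beside 16.7% and 9.54% of probe sets. Whether the tissues differed in their course was tested per dose in the same way, and 0 of 10 genes passed at 3 mg/kg and at 18 mg/kg, beside 0.293% and 0.129%. For Herpud1 without the compressed arrays the unadjusted p was 0.0035 at 3 mg/kg and 0.0069 at 18 mg/kg, and the adjusted p was 0.11 and 0.4. The rise of Herpud1 in liver was thus not shown to differ from its course in cortex.

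Other genes of these pathways were followed in 4 lists from which the members were left out. Of the sensors and regulators 19 of 22 genes were measured, of ER chaperones and folding enzymes 26 of 28, of secretory and degradation genes downstream of IRE1 and XBP1 43 of 47, and of ATF4 and CHOP targets 43 of 54. In cortex, with all arrays, no listed gene passed in any contrast by limma, and list medians lay between -0.05 and 0.12. Without replicate 2 of the 18 mg/kg 48 h group, where Xbp1 passed, 9 listed genes passed in that contrast, 8 lower and 1 higher, beside 585 lower and 282 higher over all genes. Among them Wars1, a tRNA synthetase gene, was lower by 0.55 (adjusted p = 0.011, limma) and Eif2s1, which encodes a subunit of eIF2, by 1.72 (adjusted p = 0.012). The median of the ATF4 and CHOP targets was 0.14. These calls rest on replicates 1 and 3 at 48 h, which had the widest actin gaps in cortex (4.61 and 4.39). Replicate 3 also had a hepatocyte marker mean of 10.45. The part of these features was not tested. With all liver arrays the lists had passing genes in 1 contrast, 48 h at 3 mg/kg, in which 9.34% of probe sets passed.

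In that contrast 3 of 19 sensors and regulators rose and 1 fell. Mbtps1, a protease that cleaves ATF6, rose by 1.17 (adjusted p = 0.04, limma), Eif2ak4, which encodes GCN2, by 1.07 (adjusted p = 0.047) and the adaptor gene Nck1 by 1.76 (adjusted p = 0.038). Creb3l1, a factor held in the ER membrane, fell by 0.91 (adjusted p = 0.026, limma). Of the 26 chaperones none passed, with a median of 0.41 and 23 above 0. Of the secretory and degradation genes 6 of 43 rose, with a median of 0.79 and 40 above 0. Among them were Sec24d, a coat protein of vesicles leaving the ER (2.72, adjusted p = 0.025), Sec63, part of the translocation channel (0.96, adjusted p = 0.027), and the signal peptidase subunits Sec11a (1.37, adjusted p = 0.04) and Spcs1 (from 10.21 to 11.21, adjusted p = 0.033).

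Of the ATF4 and CHOP targets 9 of 43 rose and 1 fell, with a median of 0.67. Those that rose included the aminoacyl-tRNA synthetase genes Lars1 (1.52, adjusted p = 0.025, limma) and Nars1 (1.77, adjusted p = 0.027), Xpot, an exporter of tRNA (2.03, adjusted p = 0.026), and Bbc3, a cell death gene that encodes PUMA (1.20, adjusted p = 0.027). The 1 that fell was Slc7a1, a transporter of cationic amino acids, which fell by 1.27 (adjusted p = 0.028). Over all genes with a symbol 1217 of 14217 rose and 265 fell, with a median of 0.05. Without the compressed arrays the counts higher and lower were 1 and 1 of the sensors, 0 of the chaperones, 3 and 0 of the secretory genes and 4 and 2 of the ATF4 and CHOP targets, beside 582 and 129 of all genes. The list medians were 0.07, 0.20, 0.32 and 0.20, and the median over all genes in that fit is not given here. Of the genes named above Nck1, Creb3l1, Lars1, Xpot and Slc7a1 then passed in the same direction, while Mbtps1, Eif2ak4, Sec24d, Sec63, Sec11a, Spcs1, Nars1 and Bbc3 did not pass. The secretory genes that passed were Ssr4, Ddost and Kdelr2. Without the compressed 18 mg/kg array alone the ATF4 and CHOP targets had 16 higher and 2 lower and the secretory genes 22 higher, beside 3063 and 1180 of all genes. Genes of the sensor and chaperone lists passed there too. The 3 mg/kg 0 h group of that fit still holds the other compressed array.

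Patterns over arrays are given as Pearson correlations across the 24 arrays of a tissue, which share the groups and the array-wide features above. In cortex the genes most like Hspa5 were Pdia6 (0.80) and Pdia4 (0.73), both protein disulfide isomerases of the ER, and Clec3b (0.69). Those most like Atf4 in cortex were Ankmy2 (0.83), Ppif (0.74) and Armc9 (0.72). In liver the nearest to Hspa5 were Eef1b2 (0.99), Cct4 (0.98) and Irgm2 (0.98), and over the 22 arrays without the compressed ones Eef1b2 (0.87), Pgpep1 (0.82) and Tmem196 (0.82). For Atf4 in liver they were Atp5po, Rplp0 and Vtn (0.98 each), and without the compressed arrays Gchfr (0.91), Sf3b3 (0.86) and Gckr (0.86).

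Among the 45 pairs of members, 11 correlated above 0.7 in liver with all arrays and 1 without the compressed arrays, Trib3 with Herpud1 (0.80 over 22 arrays). The same pair correlated at -0.75 in cortex, where Trib3 lay between 5.45 and 5.98. Both promoter stretches above hold the composite core, and a link to these correlations was not tested. In cortex the 1 pair above 0.7 was Xbp1 with Calr (0.73), both of which had lower means in arrays with an actin gap over 3. The median over the 45 pairs was 0.36 in liver, 0.19 in liver without the compressed arrays and -0.02 in cortex.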

How the data were processed

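Biotin-labelled RNA from 48 tissue samples was read on Affymetrix whole-genome rat arrays. The deposited values are log2 signals, and according to the submitters' processing notes the authors used RMA and Partek; versions and settings are not given in the sources used here. RMA is meant to make array distributions alike. Array means lay between 6.737 and 6.741, so these values would understate any shift common to most genes. The SDs of log2 values ran from 1.383 to 2.165, so the distributions were not alike in spread. The values were used as deposited.

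Of 31099 probe sets, 57 controls were left out. In each tissue limma 3.58.1 (R 4.3.3) was fitted with 8 group means over 24 arrays, with each later group set against its own 0 h group and with the doses averaged. All 48 arrays were fitted together for the tissue comparisons. P-values were two-sided and adjusted by the Benjamini-Hochberg method over 31042 probe sets in each contrast, with 0.05 as the threshold. Arrays carry no count of molecules, so their number limits the precision. Replicate numbers were not used as pairs.

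The members and lists were chosen with earlier results of these data known. The text names all members, up to 4 genes per pathway list and tissue by smallest adjusted p (Slc7a1 and the genes named only with arrays left out were chosen after their values were seen), and the 3 genes most correlated with Hspa5 and Atf4. Alternatives covered normalization, filters, covariates, array weights and leaving out arrays. Fits were tested on simulated data.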

Additional observations from a re-analysis of the deposited data

How the results depend on the processing

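Counts are of member values past limma's adjusted threshold. In liver the 60 values against 0 h, of which 0 passed, had 12 passing with the actin gap as a covariate, beside 14% over all probe sets, and 20 with array quality weights, beside 18.7%. The estimation of those weights did not converge. The liver gap was 0.62 in the compressed 18 mg/kg 4 h array and 2.76 to 4.38 in the others. Leaving out 1 array at a time gave 0 to 8, with 8 without the 18 mg/kg 4 h replicate 1 and 1 without the 3 mg/kg 0 h replicate 3. The 40 liver values over both doses, with 0 passing, had 8 with the gap covariate (beside 11.8%), 2 without the compressed arrays, 20 with array weights (beside 21%), and 0 to 2 leaving out 1 array. For the liver 0 h groups the count went from 0 to 5 with the gap covariate, 5 with array weights and 0 to 1 leaving out 1 array, and for the difference between doses in liver from 0 to 4 with array weights. In cortex leaving out 1 array gave 0 to 1. Between tissues at 0 h the count of 6 became 10 without both compressed arrays, 9 after quantile normalization and 6 to 7 leaving out 1 of the 0 h arrays. With array weights Atf3 in liver at 3 mg/kg turned to 0.76 (adjusted p = 0.019) at 4 h and 0.80 (adjusted p = 0.02) at 48 h, and Herpud1 at 18 mg/kg and 4 h to 0.85 (adjusted p = 0.021). The cause was not tested. With the replicate number as a block 0 members passed within either tissue and 6 between tissues. In same-number arrays the deviations from the group means correlated between -0.43 and 0.48. Of these pairs 7 of 24 were over 0.1 between tissues, 4 of 18 within cortex and 7 of 18 within liver. Pairs with different numbers were not compared. The numbers were not used as pairs. Whether they mark shared animals is not given in the sources used here. Of the 60 values per tissue 40 in cortex and 32 in liver kept their sign under all alternatives run. Dim members had no value where only brighter probe sets were kept. Array weights, leaving out the compressed arrays and the settings on hepatocyte markers were chosen after seeing the data.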
